A study of Marchantia polymorpha and Lactuca sativa with 27 samples.

Results

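MpExpansin34 (Mp4g22180) is a gene of the liverwort Marchantia polymorpha that carries the name of the expansin family. Its row was taken by identifier from a table of 19355 genes, so 1 gene of 19355 is described, in 18 libraries. The gene was chosen by its own measured values, which differed widely between growth media. Its levels and differences are therefore given as a description without a test, and tests are given only for other genes.

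Expansins are secreted proteins of the plant cell wall. They loosen the contacts between cellulose and other wall polysaccharides without cutting them, and so let a wall under turgor stretch while the cell enlarges. They are known to act best at acidic pH, which links them to the plasma membrane proton pumps that acidify the wall. Seed plant families hold alpha-expansins and beta-expansins, and neither the count table nor the name table says to which class MpExpansin34 belongs or in which cells it acts.

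RNA was sequenced from whole plants of Mpwrky10, a mutant line whose label points to a transcription factor gene of the WRKY type, and of the wild-type male accession Tak-1. Gemmalings, young plants grown from asexual buds, were 7 days old when they were moved for 5 days to one of 3 media. These were medium labelled as lacking nitrate (0 mM nitrate), medium labelled as lacking phosphate (0 mM phosphate), and full medium, which held 10 mM nitrate and 2 mM phosphate. Each of the 6 groups of genotype and medium held 3 libraries. The labels give neither the kind of mutation in Mpwrky10, the number of independent lines, nor whether replicates came from separate cultures. P-values therefore measure only the spread between these libraries, which may be technical. Lettuce libraries of the same series hold no row of this gene and are not analysed here.

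Library totals ran from 18165419 to 25544702 counts, so 1 count was worth 0.0391 to 0.055 CPM, the count relative to the size of the library. On the first principal component of all tested genes (42.5% of the variance), the wild-type libraries labelled no nitrate scored 23.8 (replicate 1), 50.8 and 46.3. The mutant libraries in full medium scored -55.7, -57.4 and -78.7 (replicate 3). The media labels were set against transporter genes known to respond to each nutrient. Of 7 tested PTB phosphate transporter genes, 6 were higher in mutant and 7 in wild-type libraries labelled no nitrate than in full medium, and 1 was higher in each genotype labelled no phosphate. Over all 13016 genes tested, 23.2% were higher in mutant and 20.6% in wild-type libraries labelled no nitrate, and 20.3% in mutant and 26.3% in wild-type libraries labelled no phosphate. Of 8 tested AMT ammonium transporter genes, 7 were higher in mutant and 8 in wild-type libraries labelled no phosphate, and 3 in mutant and 6 in wild-type libraries labelled no nitrate. Of these genes, 5 of the 7 PTB and 4 of the 8 AMT genes reached the filter minimum in fewer than 3 of the 6 full-medium libraries, and 3 of the PTB genes had a group at 0 counts in the wild-type comparison labelled no nitrate and 2 in the mutant one. The 5 PTB and 4 AMT genes passed the filter only through starved libraries, so their rises support nothing. Of the 2 other PTB genes, 1 was higher in mutant and 2 in wild-type libraries labelled no nitrate than in full medium. In libraries labelled no phosphate 1 was higher in each genotype and 1 was lower in Mpwrky10, where 16.8% of all genes were lower. Of the 4 other AMT genes, all 4 were higher in each genotype labelled no phosphate than in full medium. In libraries labelled no nitrate 2 of these 4 AMT genes were higher in wild type and 0 in Mpwrky10. In these comparisons with full medium 0 of the 4 were lower. The starved media were also compared directly, no nitrate against no phosphate. Of the 7 PTB genes 6 were higher and 1 lower in Mpwrky10, and 6 were higher and 0 lower in wild type. Of the PTB genes 3 had a group at 0 counts in each genotype. Of the 8 AMT genes 4 were lower in Mpwrky10 and 5 in wild type, and 0 were higher in either. Of all genes 15.3% were higher and 11.4% lower in Mpwrky10, and 17.5% and 14.6% in wild type. Whether the labels of the starved libraries were exchanged was not tested. Every direction below that names a starved medium follows the labels. MpWRKY10 itself averaged 35.7 ± 1.65 CPM in mutant and 23.5 ± 2.91 CPM in wild-type libraries labelled no nitrate, and 18.7 ± 3.45 CPM in mutant and 19.5 ± 2.61 CPM in wild-type libraries in full medium (SD, n = 3 each). In libraries labelled no phosphate it averaged 27.2 ± 1.68 CPM in mutant and 29.8 ± 1.34 CPM in wild type. Since the labels do not give the kind of mutation, and a change inside the gene need not lower its reads, these levels do not check the genotype labels.

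MpExpansin34 was highest in full medium, lower in libraries labelled no nitrate and lowest in libraries labelled no phosphate, in both genotypes. Under the label no nitrate, it had 4.38, 3.99 and 3.10 CPM in Mpwrky10, against 14.2, 9.30 and 8.28 CPM in wild type. With the label no phosphate, it had 1.03, 0.925 and 1.09 CPM in Mpwrky10, against 0.950, 1.08 and 1.48 CPM in wild type. In full medium it had 19.3, 18.3 and 14.1 CPM in Mpwrky10, against 25.9, 27.8 and 24.8 CPM in wild type. The mutant libraries lay below all wild-type libraries in full medium and in the medium labelled no nitrate, and the genotypes overlapped in the medium labelled no phosphate. In samples of whole plants, fewer cells that express the gene and less RNA per cell cannot be told apart.

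**Figure D1:**
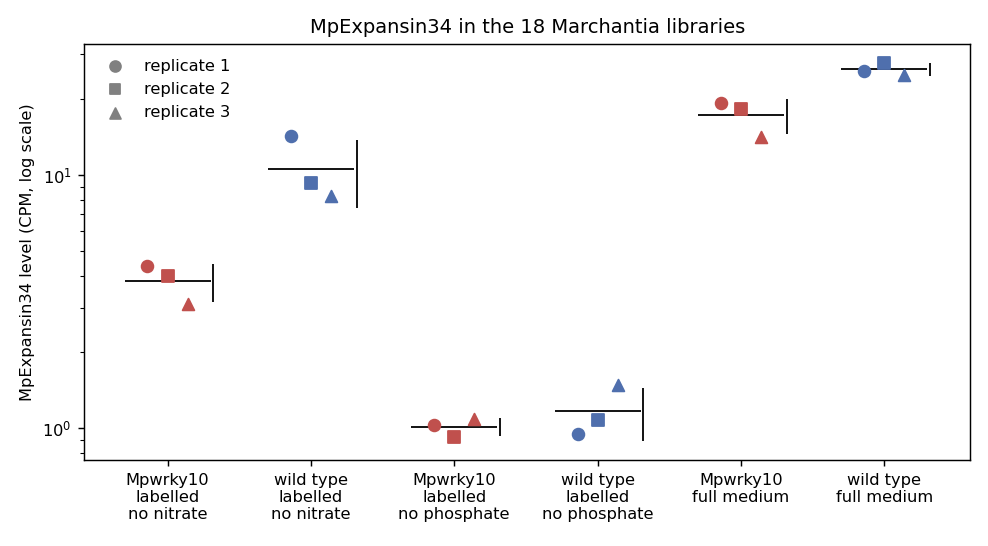
MpExpansin34 level in CPM (log axis) in each of the 18 libraries, by genotype and medium. Points are libraries, horizontal lines are group means and vertical bars are the SD. All 6 libraries labelled no phosphate lie between 0.925 and 1.48 CPM, below every other library.

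From lowest to highest, the 6 group means began with the medium labelled no phosphate, at 1.01 ± 0.0819 CPM in Mpwrky10 and 1.17 ± 0.279 CPM in wild type. The medium labelled no nitrate came next, at 3.82 ± 0.655 CPM in Mpwrky10 and 10.6 ± 3.18 CPM in wild type. Full medium was highest, at 17.3 ± 2.76 CPM in Mpwrky10 and 26.2 ± 1.5 CPM in wild type (SD, n = 3 each in all 6 groups). Neighbours in this order overlapped in 2 places. The highest wild-type library labelled no nitrate, at 14.2 CPM, was just above the lowest mutant library in full medium, at 14.1 CPM, and the 2 groups labelled no phosphate overlapped. Without wild-type replicate 1, which also stood apart over all genes, the wild-type mean labelled no nitrate was 8.79 CPM. The lowest group still rested on 20 to 22 counts per library, and wild type labelled no phosphate on 20 to 38, against 351 to 368 in Mpwrky10 and 483 to 708 in wild type in full medium.

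As fitted log2 differences from full medium, MpExpansin34 was -2.17 (SE 0.190) in Mpwrky10 and -1.30 (SE 0.173) in wild type labelled no nitrate, which is 4.50-fold and 2.46-fold lower. For the medium labelled no phosphate, the differences were -4.08 (SE 0.226) in Mpwrky10 and -4.46 (SE 0.217) in wild type, which is 16.9-fold and 22.0-fold lower. Between the starved media, libraries labelled no nitrate exceeded those labelled no phosphate by 1.91 (SE 0.249) in Mpwrky10 and 3.16 (SE 0.221) in wild type. The starved libraries of a genotype were set against the same 3 full-medium libraries, so these differences are not independent of each other.

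Relative to wild type, Mpwrky10 differed by -1.48 (SE 0.193) on the log2 scale in libraries labelled no nitrate, which is 2.78-fold lower. The difference was -0.22 (SE 0.287) in libraries labelled no phosphate and -0.60 (SE 0.168) in full medium, which is 1.52-fold lower. The change from full medium to the medium labelled no nitrate was thus more negative in Mpwrky10 than in wild type by 0.87 (SE 0.255), a log2 difference of -0.87 that became -0.60 without wild-type replicate 1 labelled no nitrate. The same quantity for the medium labelled no phosphate was 0.38 (SE 0.336), and 0.60 without wild-type replicate 3 labelled no phosphate.

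The count table held 37 named expansins, of which 36 were genes other than MpExpansin34. Of these, 26 passed the filter on low counts and were tested, and the other 10 reached at most 14 counts in any library, 3 of them with 0 counts throughout. Among the 26 tested genes, 7 had fewer than 3 of the 6 full-medium libraries at the filter minimum of 10 counts (0.496 CPM at the median library total). Those 7 entered only through the starved libraries, where they had to be higher, so the counts of rises below describe the tested genes and support nothing. The 36 other expansins together held far more reads than MpExpansin34. Their summed level was 1053 ± 90.9 CPM in Mpwrky10 and 1330 ± 34 CPM in wild type labelled no nitrate, 1011 ± 81.4 CPM in Mpwrky10 and 1239 ± 19.0 CPM in wild type labelled no phosphate, and 1101 ± 69.8 CPM in Mpwrky10 and 1313 ± 7.26 CPM in wild type in full medium (SD, n = 3 each). The summed levels of the genotypes did not overlap in any medium, with Mpwrky10 below wild type. MpExpansin2, MpExpansin6 and MpExpansin15 held 76.5 to 82.1% of all expansin reads on group average. A long transcript gives more reads, so shares of reads are not shares of molecules.

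Within the family, MpExpansin34 held 0.361 ± 0.0493% of expansin reads in Mpwrky10 and 0.787 ± 0.213% in wild type labelled no nitrate. It held 0.1 ± 0.0083% in Mpwrky10 and 0.0942 ± 0.0209% in wild type labelled no phosphate, and 1.54 ± 0.153% in Mpwrky10 and 1.96 ± 0.121% in wild type in full medium (SD, n = 3 each). Its share thus differed between media by far more than the summed level of the rest of the family did. The gene was chosen by its own values and the sum is held mostly by 3 genes, so this contrast supports nothing. It is not particular to MpExpansin34, since MpExpansin11 alone ran from 1.84 CPM in full medium to 22.2 CPM labelled no phosphate in wild type.

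**Figure D2:**
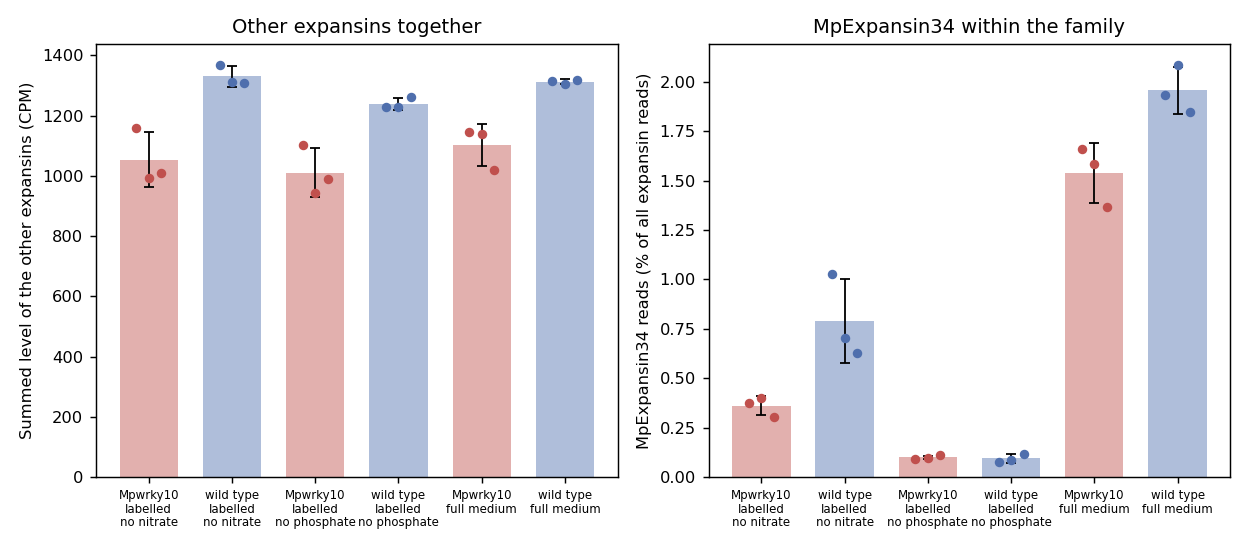
Left, summed level of the other expansins in CPM; right, MpExpansin34 as a percentage of all expansin reads. Bars are group means, whiskers the SD and points the 3 libraries. The summed level stays between 1011 and 1330 CPM on group average, while the share runs from 0.0942 to 1.96%.

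Among the tested expansins, more rose than fell in the starved media, where MpExpansin34 was lower. Among libraries labelled no nitrate, 17 of 26 rose and 2 fell in Mpwrky10, where 23.2% of the 13016 genes tested rose and 16.2% fell. In wild type 15 rose and 1 fell, where 20.6% of all genes rose and 13.9% fell. Where the label read no phosphate, 15 rose and 5 fell in Mpwrky10, where 20.3% of all genes rose and 16.8% fell. In wild type 16 rose and 5 fell, where 26.3% of all genes rose and 22.9% fell. A gene was counted at an adjusted p under 0.05 in edgeR's quasi-likelihood test. Without the 7 genes that passed the filter only through the starved libraries, 10 of 19 rose and 2 fell in Mpwrky10 and 9 rose and 1 fell in wild type labelled no nitrate, and 9 rose and 5 fell in each genotype labelled no phosphate. The median log2 difference of these 19 was 1.19 in Mpwrky10 and 0.31 in wild type labelled no nitrate, and 0.82 in Mpwrky10 and 0.42 in wild type labelled no phosphate. The median of all genes was within 0.03 of 0 in each. None of the 26 fell as far as MpExpansin34 in any of these 4 comparisons. As MpExpansin34 was chosen by its own values and 7 of the 26 had to be higher, this is a description that supports nothing. The lowest were MpExpansin32 at -0.86 in both genotypes labelled no nitrate, and MpExpansin16 at -0.90 in Mpwrky10 and -0.75 in wild type labelled no phosphate.

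**Figure D3:**
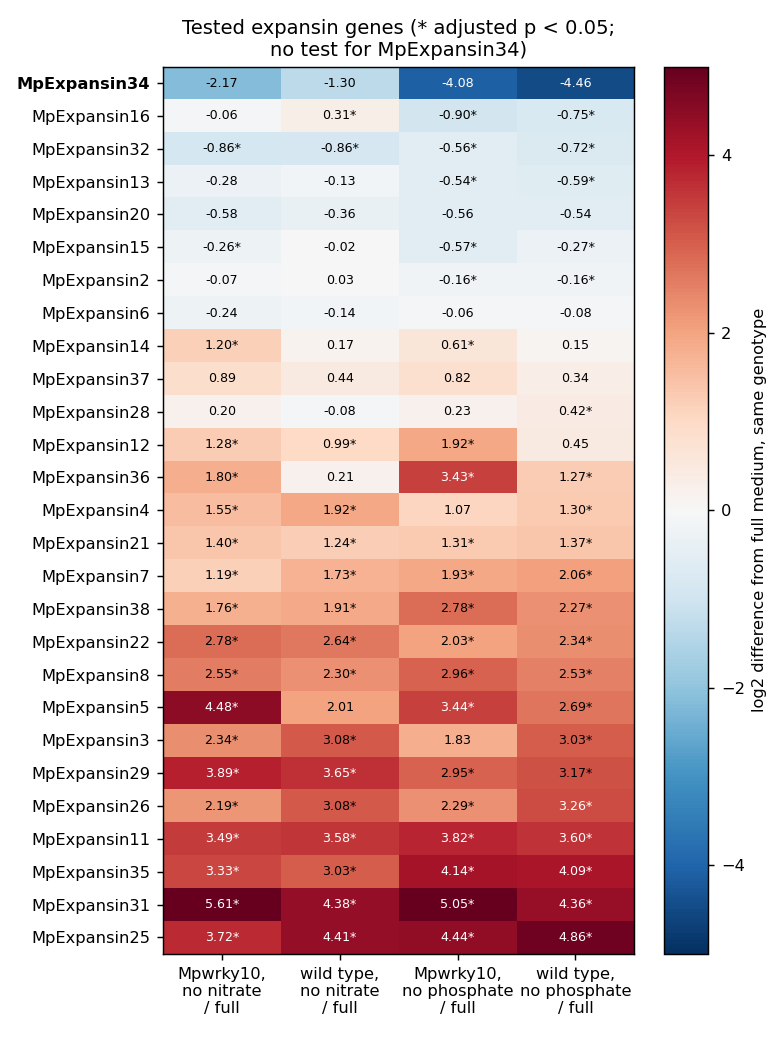
Fitted log2 difference from full medium of the same genotype for MpExpansin34 (top) and the 26 other tested expansins, in columns by genotype and labelled starvation. An asterisk marks an adjusted p under 0.05, and MpExpansin34 has no test. The 7 genes that passed the filter only through the starved libraries had to be higher there. Blue is lower and red higher than in full medium; fitted values of genes with almost no full-medium counts, such as MpExpansin31, are not bounds.

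The largest fitted rises were those of genes with few reads in full medium. MpExpansin11 averaged 12.4 ± 3.04 CPM in Mpwrky10 and 22.0 ± 7.68 CPM in wild type labelled no nitrate, and 15.6 ± 5.66 CPM in Mpwrky10 and 22.2 ± 3.68 CPM in wild type labelled no phosphate, against 1.14 ± 0.775 CPM in Mpwrky10 and 1.84 ± 0.505 CPM in wild type in full medium (SD, n = 3 each). Its log2 difference was 3.49 (SE 0.475) in Mpwrky10 and 3.58 (SE 0.432) in wild type labelled no nitrate (edgeR adjusted p = 7.12e-05 and 3.34e-05). In libraries labelled no phosphate it was 3.82 (SE 0.470) in Mpwrky10 and 3.60 (SE 0.431) in wild type (edgeR adjusted p = 3.18e-05 and 1.26e-05). No starved library of MpExpansin11 overlapped a full-medium library. MpExpansin35 reached the filter minimum in only 1 of the 6 full-medium libraries and so passed the filter only through the starved ones, where it had to be higher. Its fitted differences were therefore given without a test, at 4.14 (SE 0.562) in Mpwrky10 and 4.09 (SE 0.442) in wild type labelled no phosphate, and 3.33 (SE 0.598) in Mpwrky10 and 3.03 (SE 0.454) in wild type labelled no nitrate.

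MpExpansin7 rose more modestly. Under the label no phosphate, its log2 difference was 1.93 (SE 0.242) in Mpwrky10 and 2.06 (SE 0.240) in wild type, and in libraries labelled no nitrate 1.19 (SE 0.249) in Mpwrky10 and 1.73 (SE 0.244) in wild type (edgeR adjusted p at most 0.000915). MpExpansin31, which like MpExpansin35 passed the filter only through the starved libraries, had 62 counts in the 3 Mpwrky10 libraries labelled no nitrate, against 1 count in the 3 Mpwrky10 libraries in full medium. That is a ratio of 67.3 after scaling for depth, with a 95% exact binomial counting interval of 11.6 to 2702 that covers counting error only. The gene had to be higher in the starved libraries to be listed, so the ratio and its interval are no test and support nothing. Reads of close family members may have been divided between genes in ways the sources used here do not give, which makes values of single expansins uncertain to that extent.

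A smaller group of expansins with more reads fell. MpExpansin32 averaged 28.8 ± 4.17 CPM in Mpwrky10 and 50.9 ± 6.28 CPM in wild type labelled no nitrate, 35.4 ± 3.65 CPM in Mpwrky10 and 55.9 ± 2.31 CPM in wild type labelled no phosphate, and 52.3 ± 3.67 CPM in Mpwrky10 and 92.3 ± 3.87 CPM in wild type in full medium (SD, n = 3 each). It fell in all 4 comparisons with full medium, by 0.56 to 0.86 on the log2 scale (edgeR adjusted p at most 0.000225). MpExpansin16 followed the label as MpExpansin34 did only in part. With the label no phosphate, it fell by 0.90 (SE 0.109) in Mpwrky10 and 0.75 (SE 0.107) in wild type (edgeR adjusted p = 5.35e-06 and 1.34e-05). For the medium labelled no nitrate, it rose by 0.31 (SE 0.104) in wild type (edgeR adjusted p = 0.0286) and was at -0.06 (SE 0.106) in Mpwrky10 (edgeR adjusted p = 0.685).

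The starved media were also set directly against each other. Between libraries labelled no nitrate and those labelled no phosphate, 3 of 26 were higher and 4 lower in Mpwrky10, where 15.3% of all genes were higher and 11.4% lower. In wild type 3 were higher and 2 lower, where 17.5% of all genes were higher and 14.6% lower. The count in Mpwrky10 was near the share of all genes. MpExpansin16 was among the higher ones in both genotypes, by 0.84 (SE 0.110) in Mpwrky10 and 1.05 (SE 0.107) in wild type (edgeR adjusted p = 2.41e-05 and 7.98e-07). This is the direction of MpExpansin34, whose own differences were 1.91 and 3.16.

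Between genotypes, some expansins were lower in Mpwrky10, as MpExpansin34 was. In the medium labelled no nitrate 2 of 26 were higher and 9 lower in Mpwrky10 than in wild type, where 9.59% of all genes were higher and 9.82% lower. Among libraries labelled no phosphate, 1 was higher and 3 were lower, where 2.66% of all genes were higher and 3.95% lower. In full medium 1 was lower, where 2.17% of all genes were lower, and 0 were higher, where 2.07% of all genes were higher. In that comparison 0 were higher and 7 lower at an unadjusted p under 0.05 in edgeR, and DESeq2 called 0 higher and 3 lower.

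MpExpansin32 was lower in Mpwrky10 in all 3 media. The log2 difference was -0.82 (SE 0.102) in libraries labelled no nitrate, -0.66 (SE 0.0999) in libraries labelled no phosphate and -0.82 (SE 0.0974) in full medium (edgeR adjusted p = 1.88e-05, 0.000333 and 2.33e-05). No mutant library overlapped a wild-type library of the same medium. MpExpansin15, one of the 3 expansins with the most reads, averaged 242 ± 33.1 CPM in Mpwrky10 and 351 ± 25.9 CPM in wild type labelled no nitrate (SD, n = 3 each), a log2 difference of -0.54 (SE 0.0983; edgeR adjusted p = 0.000985). Where the label read no phosphate, it averaged 196 ± 30.0 CPM in Mpwrky10 and 295 ± 14.6 CPM in wild type (SD, n = 3 each), a difference of -0.59 (SE 0.0985; edgeR adjusted p = 0.00105). MpExpansin16 was lower in Mpwrky10 by 0.58 (SE 0.105) in libraries labelled no nitrate (edgeR adjusted p = 0.000785). MpExpansin35 was at -1.55 (SE 0.358) in libraries labelled no phosphate (edgeR adjusted p = 0.0146), a call lost at adjusted p = 0.052 without mutant replicate 3 and at 0.0589 without wild-type replicate 2 of that medium.

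MpExpansin14 moved the other way. It had 61.6, 64.0 and 43.6 CPM in Mpwrky10 labelled no nitrate, against 25.7, 26.3 and 26.4 CPM in wild type labelled no nitrate. It had 36.3, 36.7 and 39.4 CPM in Mpwrky10 labelled no phosphate, against 22.6, 25.5 and 28.6 CPM in wild type labelled no phosphate. In full medium it had 24.4, 30.6 and 19.2 CPM in Mpwrky10, against 24.3, 23.7 and 21.4 CPM in wild type. The genotypes overlapped in full medium and not in the starved media. The difference between genotypes was 1.11 (SE 0.149) in libraries labelled no nitrate (edgeR adjusted p = 9.08e-05) and 0.55 (SE 0.149) in libraries labelled no phosphate (edgeR adjusted p = 0.0387). The second call was lost when any of 7 single libraries was left out, with adjusted p from 0.0515 to 0.160.

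**Figure D4:**
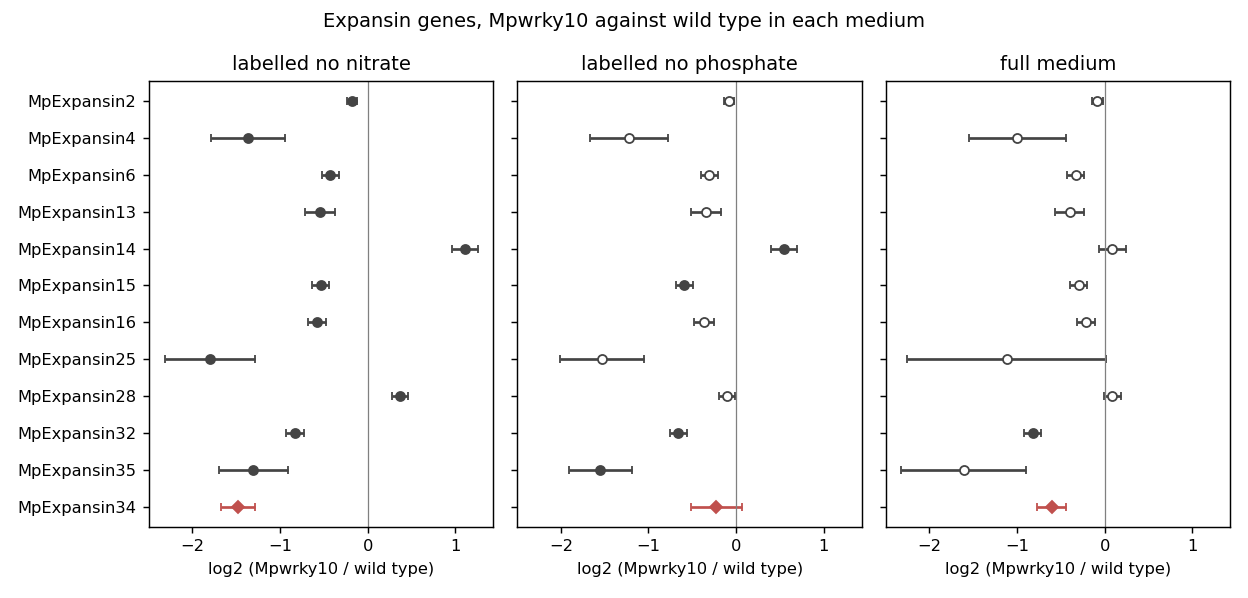
Log2 difference between Mpwrky10 and wild type, with its SE, for the expansins called in at least 1 medium and for MpExpansin34, in 3 panels by medium. Filled circles passed an adjusted p under 0.05 and open circles did not; the red diamonds of MpExpansin34 carry no test. MpExpansin32 lies below 0 in all 3 panels, and MpExpansin14 above 0 in both starved panels at 1.11 and 0.55.

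In the test of whether the change with the medium labelled no nitrate differed between genotypes, 1 of 26 expansins was called higher, where 0.937% of all genes were higher, and 0 lower, where 1.19% were lower. At an unadjusted p under 0.05 edgeR gave 2 higher and 1 lower, and DESeq2 called 1 higher and 0 lower. The one gene was MpExpansin14, which exceeded 0 by 1.02 (SE 0.213; edgeR adjusted p = 0.0206), opposite in sign to the -0.87 of MpExpansin34. The call was lost without mutant replicate 2 labelled no nitrate, wild-type replicate 1 in full medium or wild-type replicate 2 in full medium (edgeR adjusted p = 0.0525, 0.0572 and 0.0534). For the medium labelled no phosphate edgeR called 0 higher, where 0.023% of all genes were higher, and 0 lower, where 0.284% were lower. At an unadjusted p under 0.05 there were 3 higher and 1 lower, and DESeq2 called 0 in either direction.

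Members of other wall families rose and fell in the starved media. In these comparisons 23.2% of all genes rose and 16.2% fell in Mpwrky10 and 20.6% rose and 13.9% fell in wild type labelled no nitrate. The shares labelled no phosphate were 20.3% higher and 16.8% lower in Mpwrky10 and 26.3% higher and 22.9% lower in wild type. Among the lists below, 5 GH16, 3 GH17, 1 pectin enzyme, 1 CSLD, 1 glycosyltransferase and 2 HA genes passed the filter only through the starved libraries, so counts of rises in these lists support nothing. Of 24 tested GH16 genes, a family that includes the enzymes that cut and rejoin xyloglucan, 12 rose and 3 fell in Mpwrky10 labelled no nitrate, and 10 rose and 2 fell in Mpwrky10 labelled no phosphate. In wild type 12 rose and 5 fell in libraries labelled no phosphate, and 13 rose and 0 fell in libraries labelled no nitrate. In the last comparison 1 was lower at an unadjusted p under 0.05 in edgeR and 0 in DESeq2. MpGH16.32 averaged 10.3 ± 2.60 CPM in Mpwrky10 and 12.8 ± 1.91 CPM in wild type labelled no nitrate, against 2.92 ± 0.376 CPM in Mpwrky10 and 3.28 ± 0.682 CPM in wild type in full medium (SD, n = 3 each). Its differences were 1.82 (SE 0.207) in Mpwrky10 and 1.96 (SE 0.203) in wild type (edgeR adjusted p = 2.42e-06 and 1.15e-06). MpGH16.12 rose by 0.82 (SE 0.131) in Mpwrky10 and 1.28 (SE 0.130) in wild type labelled no phosphate (edgeR adjusted p = 0.000131 and 1.02e-06).

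Of 22 tested GH17 genes, the beta-glucanase family, 9 rose and 8 fell in Mpwrky10 and 6 rose and 3 fell in wild type labelled no nitrate. In libraries labelled no phosphate 9 rose and 2 fell in Mpwrky10 and 8 rose and 1 fell in wild type. In wild type labelled no nitrate these counts were near the shares of all genes, 20.6% higher and 13.9% lower. MpGH17.21 rose by 1.33 (SE 0.118) in Mpwrky10 and 0.69 (SE 0.117) in wild type labelled no nitrate (edgeR adjusted p = 3.75e-07 and 0.000259). For MpGH17.20 the corresponding rises were 1.09 (SE 0.0990) in Mpwrky10 and 0.37 (SE 0.0978) in wild type, and the test of the difference between genotypes gave 0.71 (SE 0.139; edgeR adjusted p = 0.0113). Of 8 tested pectin-degrading enzymes of the families GH28 and PL1, 3 rose and 1 fell in Mpwrky10 and 2 rose and 1 fell in wild type labelled no nitrate. Under the label no phosphate, 3 rose and 1 fell in each genotype. With so few genes, the counts in wild type labelled no nitrate were near the 20.6% and 13.9% of all genes. MpGH28.4 rose by 3.30 (SE 0.244) in Mpwrky10 and 2.57 (SE 0.219) in wild type labelled no phosphate (edgeR adjusted p = 5.64e-08 and 5.47e-08). MpPL1.6 averaged 5.29 ± 0.471 CPM in Mpwrky10 and 5.55 ± 0.398 CPM in wild type labelled no phosphate, against 0.266 ± 0.380 CPM in Mpwrky10 and 1.96 ± 1.23 CPM in wild type in full medium (SD, n = 3 each).

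Among genes that build wall polysaccharides, most of those called were higher. Of 10 tested CSLD genes, relatives of cellulose synthase known for tip-growing cells of other land plants, 6 rose and 1 fell in Mpwrky10 and 7 rose and 1 fell in wild type labelled no nitrate, against 23.2% of all genes that rose in Mpwrky10 and 20.6% in wild type. With the label no phosphate, 7 rose and 1 fell in Mpwrky10 and 8 rose and 2 fell in wild type, against 20.3% of all genes that rose in Mpwrky10 and 26.3% in wild type. MpCSLD1 rose by 0.96 (SE 0.134) in Mpwrky10 and 1.61 (SE 0.138) in wild type labelled no phosphate (edgeR adjusted p = 3.76e-05 and 1.69e-07), and MpCSLD3 by 0.44 (SE 0.0640) in Mpwrky10 and 0.70 (SE 0.0641) in wild type (edgeR adjusted p = 3.51e-05 and 1.19e-07). Of 70 tested glycosyltransferases of families that include wall enzymes, 37 rose and 10 fell in Mpwrky10 and 35 rose and 2 fell in wild type labelled no nitrate. For the medium labelled no phosphate, 41 rose and 4 fell in Mpwrky10 and 44 rose and 5 fell in wild type, against the same shares of all genes. MpGT34.6 rose by 0.91 (SE 0.0675) in Mpwrky10 and 1.11 (SE 0.0675) in wild type labelled no phosphate, and MpGT37.2 by 0.60 (SE 0.0728) in Mpwrky10 and 1.12 (SE 0.0733) in wild type (edgeR adjusted p at most 5.13e-06).

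The plasma membrane proton pumps, which acidify the wall, held members of both kinds. Of 15 tested HA genes, 7 rose and 1 fell in Mpwrky10 and 8 rose and 1 fell in wild type labelled no nitrate, against 23.2% of all genes that rose in Mpwrky10 and 20.6% in wild type. Among libraries labelled no phosphate, 6 rose and 2 fell in Mpwrky10 and 10 rose and 2 fell in wild type, against 20.3% of all genes that rose in Mpwrky10 and 26.3% in wild type. MpHA3 had the order of media of MpExpansin34. It averaged 525 ± 32.5 CPM in Mpwrky10 and 812 ± 51.6 CPM in wild type labelled no nitrate, 421 ± 40.6 CPM in Mpwrky10 and 533 ± 18.8 CPM in wild type labelled no phosphate, and 791 ± 87.2 CPM in Mpwrky10 and 949 ± 15 CPM in wild type in full medium (SD, n = 3 each). Where the label read no phosphate, it fell by 0.91 (SE 0.0777) in Mpwrky10 and 0.83 (SE 0.0775) in wild type (edgeR adjusted p = 2.19e-07 and 1.39e-07). In libraries labelled no nitrate it fell by 0.59 (SE 0.0773) in Mpwrky10 and 0.22 (SE 0.0770) in wild type (edgeR adjusted p = 9.86e-06 and 0.0305). MpHA3 was lower in Mpwrky10 than in wild type by 0.63 (SE 0.0774) in libraries labelled no nitrate (edgeR adjusted p = 1.64e-05), where 6 of the 15 pumps and 9.82% of all genes were lower. Labelled no phosphate, MpHA3 was lower by 0.34 (SE 0.0773; edgeR adjusted p = 0.0109), while the genotypes overlapped for MpExpansin34. In that comparison 2 of the 15 pumps and 3.95% of all genes were lower. In full medium the difference of MpHA3 was -0.26 (SE 0.0770; edgeR adjusted p = 0.0626). MpHA19 reached the filter minimum in only 2 of the 6 full-medium libraries, so its fitted differences of 2.41 (SE 0.468) in Mpwrky10 and 2.76 (SE 0.365) in wild type labelled no nitrate are given without a test.

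Of 6 tested genes of wall sensing (the receptor kinase FERONIA, its RALF peptide ligands and the LRE co-receptors, roles known from Arabidopsis), 1 rose and 2 fell in Mpwrky10 labelled no nitrate. Under the label no phosphate, 1 rose and 2 fell in each genotype, and in wild type labelled no nitrate 2 rose and 0 fell. In the last comparison 1 was lower at an unadjusted p under 0.05 in edgeR and 0 in DESeq2. The counts of this short list were near the shares of all genes labelled no phosphate, 20.3% higher and 16.8% lower in Mpwrky10 and 26.3% higher and 22.9% lower in wild type. MpRALF3 rose by 0.89 (SE 0.166) in Mpwrky10 and 1.48 (SE 0.166) in wild type labelled no nitrate (edgeR adjusted p = 0.000331 and 2.67e-06). MpLRE1 fell by 0.54 (SE 0.0650) in Mpwrky10 and 0.72 (SE 0.0648) in wild type labelled no phosphate (edgeR adjusted p = 4.49e-06 and 1.08e-07). With the label no nitrate, MpLRE1 was at -0.35 (SE 0.0647) in Mpwrky10 and 0.11 (SE 0.0639) in wild type, and the difference between these was -0.47 (SE 0.0910; edgeR adjusted p = 0.0114), the sign of the difference given for MpExpansin34.

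Among genes of DNA replication and the cell cycle, most of those called were lower. Of 40 tested histone, MCM, cyclin and CDK genes, 1 rose and 19 fell in Mpwrky10 and 13 fell in wild type labelled no nitrate, and 6 fell in Mpwrky10 and 24 in wild type labelled no phosphate. In the last 3 of these comparisons 0 rose in edgeR, at an unadjusted p under 0.05 too, and 0 in DESeq2. Of all genes 16.2% fell in Mpwrky10 and 13.9% in wild type labelled no nitrate, and 16.8% in Mpwrky10 and 22.9% in wild type labelled no phosphate, so the 6 of 40 in Mpwrky10 labelled no phosphate were near the share of all genes. Their summed level was 2331 ± 61.8 CPM in Mpwrky10 and 2285 ± 65.8 CPM in wild type labelled no nitrate, 2395 ± 86.2 CPM in Mpwrky10 and 2169 ± 22.7 CPM in wild type labelled no phosphate, and 2553 ± 109 CPM in Mpwrky10 and 2503 ± 82.3 CPM in wild type in full medium (SD, n = 3 each). The summed levels of markers of tissues that whole plants can hold moved far less than MpExpansin34, but a sum can hide single members. As MpExpansin34 was chosen by its own values, this contrast supports nothing. The summed level of 4 oil body genes ran from 61.5 to 97.4 CPM over all libraries, that of 2 gemma cup genes from 25.7 to 39.2 CPM and that of 3 sexual organ genes from 4.35 to 9.85 CPM. Of the 2 gemma cup genes, 1 rose at least 2-fold in Mpwrky10 labelled no nitrate and in each genotype labelled no phosphate. In these comparisons 23.2%, 20.3% and 26.3% of all genes rose, at any fold. Of the 4 oil body genes, 3 were lower in Mpwrky10 than in wild type labelled no phosphate, where 3.95% of all genes were lower. Against full medium, 1 oil body gene rose in Mpwrky10 and 2 in wild type labelled no phosphate (20.3% and 26.3% of all genes). In wild type labelled no nitrate 1 rose and 1 fell, where 20.6% of all genes rose and 13.9% fell. Of the 2 tested sexual organ genes, 1 rose in Mpwrky10 labelled no nitrate and 1 in Mpwrky10 labelled no phosphate. The list of rhizoid genes had no match by symbol. The part of a changed tissue make-up in the levels of MpExpansin34 was not tested.

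MpExpansin34 lies on chromosome 4 by its identifier, next to another expansin in the order of locus numbers. That neighbour, MpExpansin33 (Mp4g22170), had 0 to 3 counts per library and 11 in all 18 libraries, and was not tested. The 3 tested genes on each side, Mp4g22140, Mp4g22150 and Mp4g22160 before it and Mp4g22190, Mp4g22200 and Mp4g22210 after it, differed far less between media. The largest of their differences from full medium was -0.51 (SE 0.134; edgeR adjusted p = 0.00376), for Mp4g22210 in wild type labelled no phosphate. In Mpwrky10 the only neighbour called in either starved medium was Mp4g22140, at -0.20 (SE 0.0706; edgeR adjusted p = 0.0352) labelled no phosphate. In wild type 3 of the 6 neighbours were lower in libraries labelled no nitrate and 3 in libraries labelled no phosphate, where 13.9% and 22.9% of all genes were lower, and Mp4g22190 and Mp4g22210 were lower in both.

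The genes whose log2 CPM followed MpExpansin34 most closely over the 18 libraries were sought among 11898 genes with a mean of at least 1 CPM. The libraries fall into 6 groups of genotype and medium, so these coefficients describe group levels and carry no p. Pearson's r was 0.974 for MpTRIHELIX32 (a trihelix transcription factor by its symbol), 0.967 for Mp2g24950, 0.965 for Mp7g18240 and for Mp3g09060, and 0.963 for MpCHLI1/2-like, whose symbol refers to the CHLI subunit of magnesium chelatase, an enzyme of chlorophyll synthesis, and for Mp4g20690. The most opposite genes were Mp2g18990 at -0.974, Mp4g06980 at -0.969 and Mp7g15400 at -0.964. Such values were common, since 276 genes reached 0.9 and 128 reached -0.9. All 6 most alike genes were also within the top 100 by Spearman's rho and by the 6 group means, where 1 and 0 of them were in the top 6.

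MpTRIHELIX32 averaged 23.9 ± 0.947 CPM in Mpwrky10 and 34.5 ± 4.64 CPM in wild type labelled no nitrate, 19.5 ± 1.95 CPM in Mpwrky10 and 18.3 ± 1.18 CPM in wild type labelled no phosphate, and 42 ± 2.54 CPM in Mpwrky10 and 44.3 ± 1.70 CPM in wild type in full medium (SD, n = 3 each). Its order of media was that of MpExpansin34 with a far smaller range, at -1.10 in Mpwrky10 and -1.28 in wild type labelled no phosphate, against -4.08 and -4.46 for MpExpansin34 on the log2 scale. Among expansins the most alike was MpExpansin16 with r = 0.825, and the most opposite was MpExpansin7 with r = -0.813.

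**Figure D5:**
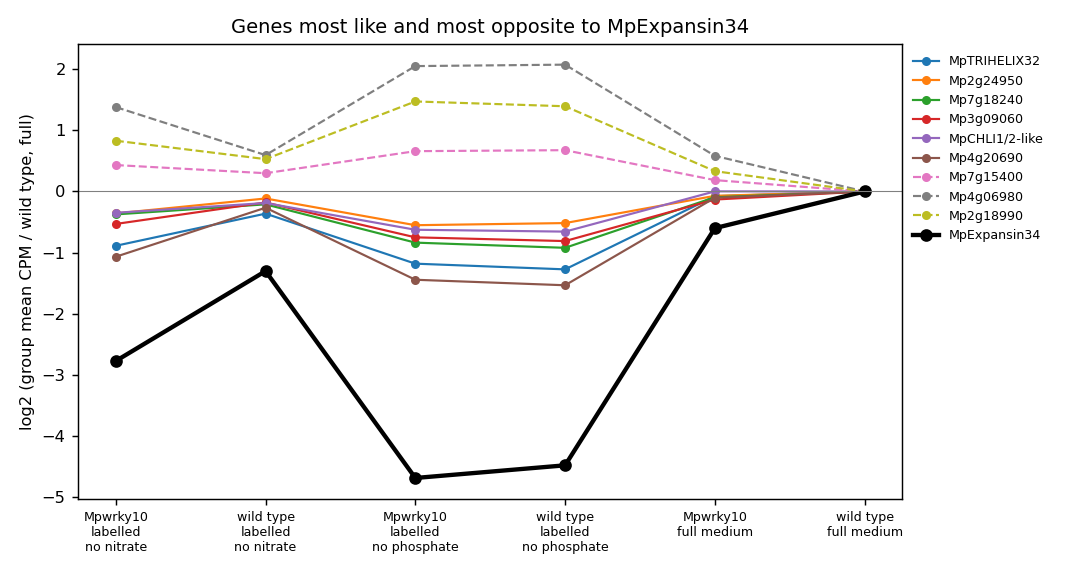
Log2 of the group mean CPM relative to wild type in full medium for MpExpansin34 (thick black line), the 6 genes with the highest Pearson correlation to it (solid) and the 3 with the lowest (dashed), over the 6 groups. All 6 similar genes share the order of media, and none of the plotted genes spans as wide a range as MpExpansin34.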

How the data were processed

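Libraries were poly(A)-selected and directional, per the labels' protocols. STAR 2.7 and DESeq2 are named in the submitters' processing notes without a role; the counting program, its strand setting and the genome build are not given in the sources used here. The deposited values were whole-number counts of reads per gene, and no normalization by the authors was found in the table. All 18 Marchantia columns were used. Replicate pairs differed by more than sampling noise (chi-square of 3.55 to 21.2 per degree of freedom).

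One edgeR model (edgeR 4.0.16, R 4.3.3) was fitted to 18 libraries in 6 groups, with filterByExpr (13016 genes kept), TMM factors of 0.972 to 1.06 and the robust two-sided quasi-likelihood F-test, Benjamini-Hochberg adjusted over all genes tested and called under 0.05. The script was tested on simulated data. SE is the log2 difference over the square root of F. Levels are CPM on TMM-scaled totals, and likeness used log2 CPM with 0.5 counts added. Alternatives were RLE factors, no filter, no TMM, DESeq2 1.42.0, a replicate block and leaving out each library.

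Symbols came from a name table of assembly MpTak2_v7.1, matched by locus number for 17384 of 18391 entries, and no coordinates were used. The gene and all lists were chosen with earlier results of these data known. Named genes were the expansins with the 4 smallest adjusted p per comparison or a called interaction, 3 tested neighbours on each side, the 6 most and 3 least alike genes and up to 2 members per wall list. Expansins nearest by protein sequence, also in the rule, were not analysed here, nor were the planned lists of GH9, COBRA and arabinogalactan genes, whose symbols were ambiguous or unmatched.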

Additional observations from a re-analysis of the deposited data

Results flagged for a closer look

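MpExpansin14 was the only one of the 26 other tested expansins whose response to the medium labelled no nitrate differed between Mpwrky10 and wild type in the test of the difference itself, at 1.02 on the log2 scale (SE 0.213; edgeR adjusted p = 0.0206). It was higher in all 3 mutant libraries than in any wild-type library of that medium. The call was lost without mutant replicate 2 labelled no nitrate (adjusted p = 0.0525), without wild-type replicate 1 in full medium (0.0572) and without wild-type replicate 2 in full medium (0.0534), while the value stayed between 0.86 and 1.2.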

How the results depend on the processing

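The log2 differences of MpExpansin34 kept their sign in all 11 comparisons under RLE factors, no filter, no TMM, DESeq2 and the replicate block. With single libraries left out they kept it too, and the differences from full medium ran from -2.30 to -2.04 in Mpwrky10 and -1.58 to -1.15 in wild type labelled no nitrate, and from -4.21 to -3.99 in Mpwrky10 and -4.68 to -4.33 in wild type labelled no phosphate. The genotype difference labelled no phosphate ran from -0.35 to -0.0021. The difference between genotypes in the response ran from -1.02 to -0.60 labelled no nitrate (-0.60 without wild-type replicate 1 of that medium) and from 0.25 to 0.60 labelled no phosphate (0.60 without wild-type replicate 3 of that medium).

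Counts of called expansins, in both directions together, moved more where few were called. For Mpwrky10 against wild type in full medium the count of 1 became 2 with the replicate block and 3 with DESeq2, and ran from 1 to 2 with single libraries left out (2 without mutant replicate 1 of any medium, or mutant replicate 2 in full medium). Labelled no phosphate the count of 4 became 7 with DESeq2 and ran from 2 to 7 (7 without wild-type replicate 1 labelled no nitrate, 2 without mutant replicate 3 or wild-type replicate 2 labelled no phosphate). Labelled no nitrate the count of 11 ran from 6 to 12 (6 without mutant replicate 2 or wild-type replicate 3 of that medium, 7 without wild-type replicate 2). Between the starved media the count of 7 in Mpwrky10 ran from 3 to 8 (3 without mutant replicate 3 labelled no nitrate or replicate 1 labelled no phosphate), and that of 5 in wild type from 2 to 6 (2 or 3 without any 1 wild-type library labelled no nitrate, 2 without replicate 1 or 2 labelled no phosphate). For the differences in response, the count ran from 0 to 1 labelled no nitrate (0 without mutant replicate 2 of that medium or wild-type replicate 1 or 2 in full medium) and from 0 to 1 labelled no phosphate (1 without mutant replicate 1 in full medium). The cause was not tested.

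The 26 values of named expansins were recomputed under each alternative except no TMM, and with each library left out, giving 572 values. Of these 559 stayed called, 13 lost the call and 0 reversed. Without the filter the genotype difference of MpExpansin14 labelled no phosphate was among the 13. The 26 include differences from full medium of MpExpansin31 and MpExpansin35, which had to be higher in the starved libraries to pass the filter. The calls kept for these differences therefore support nothing. Replicate numbers gave no clear pairing over all libraries (correlations of deviations from -0.253 to 0.247, 9 of 45 pairs above 0.1, 9 of 18 libraries closest to their own number). Between the genotypes they were 0.193, 0.182 and 0.0444 labelled no nitrate, and -0.253, -0.0837 and -0.229 in full medium. Pairing in part of the design is therefore not excluded. No call of a named expansin was lost under the replicate block. The genotype difference of MpExpansin34 labelled no phosphate rested on 20 to 38 counts per library and had an SE of 0.287.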
